A study of Mus musculus with 10 samples.

Results

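The AP-1 and immediate early transcription factors described here are the 10 genes *Fos*, *Fosb*, *Fosl1*, *Fosl2*, *Jun*, *Junb*, *Jund*, *Egr1*, *Atf3* and *Maff*. They were picked by gene name from the deposited table of 29268 genes, where all 10 are listed, and all 10 were among the 16993 genes with enough counts to be tested. The rule is a list of names with no threshold on a measured value, and the list was drawn up with earlier results of these data known. Uterine RNA of 4-month-old females, 5 HSD17B1TG and 5 WT, was sequenced by the study as 1 library each. The paper does not state which part of the uterus was taken for RNA. HSD17B1 converts estrone to the more potent estradiol, and the comparison asks how the uterine transcriptome differs when the human enzyme is over-expressed. All mice were of the FVB/N strain. HSD17B1TG mice carried a human *HSD17B1* cDNA driven in all tissues by a chicken beta actin promoter with a CMV enhancer, in a heterozygous line, and WT mice had no transgene. Because the transgene is human, the mouse gene *Hsd17b1* in the table does not check the genotype, and no other gene of the table was used to do so. HSD17B1TG females do not cycle. The cycle phase of the sequenced WT mice is not given in the sources used here, and WT uteri for the histology of the same study were taken at random phases. Mice were anaesthetised, bled from the heart and killed by cervical dislocation before the uteri were snap-frozen. The names TG1 to TG5 and WT1 to WT5 follow the animal numbers. Fewer cells of a type and less RNA per cell cannot be told apart in RNA from tissue.

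AP-1 is a dimer of basic leucine zipper (bZIP) proteins, most often a Jun protein with a Fos protein, that binds TGANTCA sites in promoters and enhancers. Jun proteins can pair with each other, whereas Fos proteins need a Jun partner. *Fos*, *Fosb*, *Jun*, *Junb*, *Egr1* and *Atf3* are classical immediate early genes, switched on within minutes by growth factors, stress or handling, without new protein synthesis. In the rodent uterus, estradiol induces *Fos* and *Jun* family genes, and the same genes respond to wounding and to the manipulation of tissue. *Jund* is the Jun member with the most constant expression in most tissues.

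Many early genes are switched on through the CRE core TGACG, to which CREB and ATF proteins bind. The 250 bases before the start site are shown for *Fos*, *Junb*, *Atf3* and *Maff*, members of 4 bZIP families that held this core. They come from a set of RefSeq promoter windows (GRCm38.p6), which held an entry for 8 of the 10 members. *Fosl1* and *Egr1* had no entry in this set. Capitals mark each match to TGACG or its reverse complement CGTCA, and in *Maff* also the EGR motif GCGNGGGCG. For *Maff*, the window before the second of 3 RefSeq start sites is shown, picked because it holds TGACGTCA. The table's gene models for *Junb*, *Atf3* and *Maff* start at other sites than these windows, for *Junb* at 84978718 against 84978748 in RefSeq. The windows are chr12:85473640-85473889 on the plus strand for *Fos*, chr8:84978749-84978998 on the minus strand for *Junb*, chr1:191183334-191183583 on the minus strand for *Atf3* and chr15:79347270-79347519 on the plus strand for *Maff*.
Fos: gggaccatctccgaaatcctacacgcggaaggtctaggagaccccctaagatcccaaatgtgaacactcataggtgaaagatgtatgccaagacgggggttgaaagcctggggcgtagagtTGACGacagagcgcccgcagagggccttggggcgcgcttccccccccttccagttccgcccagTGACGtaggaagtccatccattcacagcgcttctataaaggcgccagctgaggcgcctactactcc
Junb: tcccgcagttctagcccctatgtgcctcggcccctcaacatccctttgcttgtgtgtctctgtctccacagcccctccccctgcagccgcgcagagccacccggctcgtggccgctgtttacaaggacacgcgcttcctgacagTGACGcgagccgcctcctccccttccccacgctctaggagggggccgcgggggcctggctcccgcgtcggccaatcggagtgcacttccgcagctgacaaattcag
Atf3: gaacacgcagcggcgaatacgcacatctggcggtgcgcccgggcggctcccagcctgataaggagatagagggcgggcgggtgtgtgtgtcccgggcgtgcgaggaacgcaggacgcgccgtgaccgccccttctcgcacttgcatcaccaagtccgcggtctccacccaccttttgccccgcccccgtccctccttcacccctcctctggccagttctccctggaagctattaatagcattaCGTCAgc
Maff: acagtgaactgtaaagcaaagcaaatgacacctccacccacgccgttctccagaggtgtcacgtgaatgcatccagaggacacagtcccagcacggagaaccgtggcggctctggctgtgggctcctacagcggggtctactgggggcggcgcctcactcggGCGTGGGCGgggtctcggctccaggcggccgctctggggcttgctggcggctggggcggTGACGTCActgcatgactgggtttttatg
In *Fos* the core lies at -129 and at -66 relative to the start site, in *Junb* at -106 and in *Atf3*, on the other strand, at -7. The *Maff* window holds the full palindrome TGACGTCA at -29, which contains the core on both strands, and an EGR match at -88. In all, 6 motifs were searched on both strands in the windows from 250 bases before to 50 bases after the start site. TGACG was found in 20.8% of the 32851 RefSeq windows of this kind, TGACGTCA in 1.79%, the AP-1 site TGANTCA in 7.81%, the EGR site GCGNGGGCG in 5.55%, the CArG box bound by SRF in 1.63% and the palindromic estrogen response element in 0.0700%. *Fosb* held TGACG at -60 and the EGR site at -50, and *Fosl2* the EGR site at -79. The *Maff* window at the start of the counted gene model (79346621) held none of the 6 motifs, and the remaining *Maff* window held TGACG. The windows of *Jun* and *Jund* held none of the 6 motifs. For *Jund* the RefSeq start site (70697739) lies before the start of the gene model that was counted (70698949), and for *Fosl2* it lies after it (32136472 against 32135801), so these windows need not be the promoters of the counted models. A match is a description of the window and not a site shown to be bound.

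Of the 10 factors, none passed the thresholds set in the study's methods (adjusted p under 0.05, fold change over 2, mean FPKM over 1 in either group) with edgeR's quasi-likelihood test. Of all genes tested, 4.24% were called, 2.16% higher and 2.08% lower in HSD17B1TG (367 and 354 genes, or 286 and 494 with scaling by library size alone). An adjusted p under 0.05 alone was reached by 1 of 10, *Jund*, which was higher in HSD17B1TG, against 3.34% of all genes tested for higher expression. An unadjusted p under 0.05 was reached by 5 of 10, all with higher expression in HSD17B1TG (*Fosl2*, *Junb*, *Jund*, *Atf3* and *Maff*), against 14.7% of all genes. The log2 fold change was above 0 in 8 of 10 factors and in 50.2% of all genes, with a median of 0.62 over the factors and 0.00 over all genes tested. DESeq2 is the test named in the study's methods. With DESeq2 on the same counts, 2 of the 10 were called, *Atf3* and *Maff*, against 4.17% of genes called higher. With limma, 0 of 10 were called on voom weights, against 2.3% of genes called higher and 1.11% called lower, and 0 of 10 on log2(FPKM + 1), against 2.45% and 1.34%. In all 10 factors the FPKM of HSD17B1TG and WT mice overlapped. Over all genes tested, groups without overlap were also few, 4.04% for higher and 2.65% for lower expression in HSD17B1TG.

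**Figure D1:**
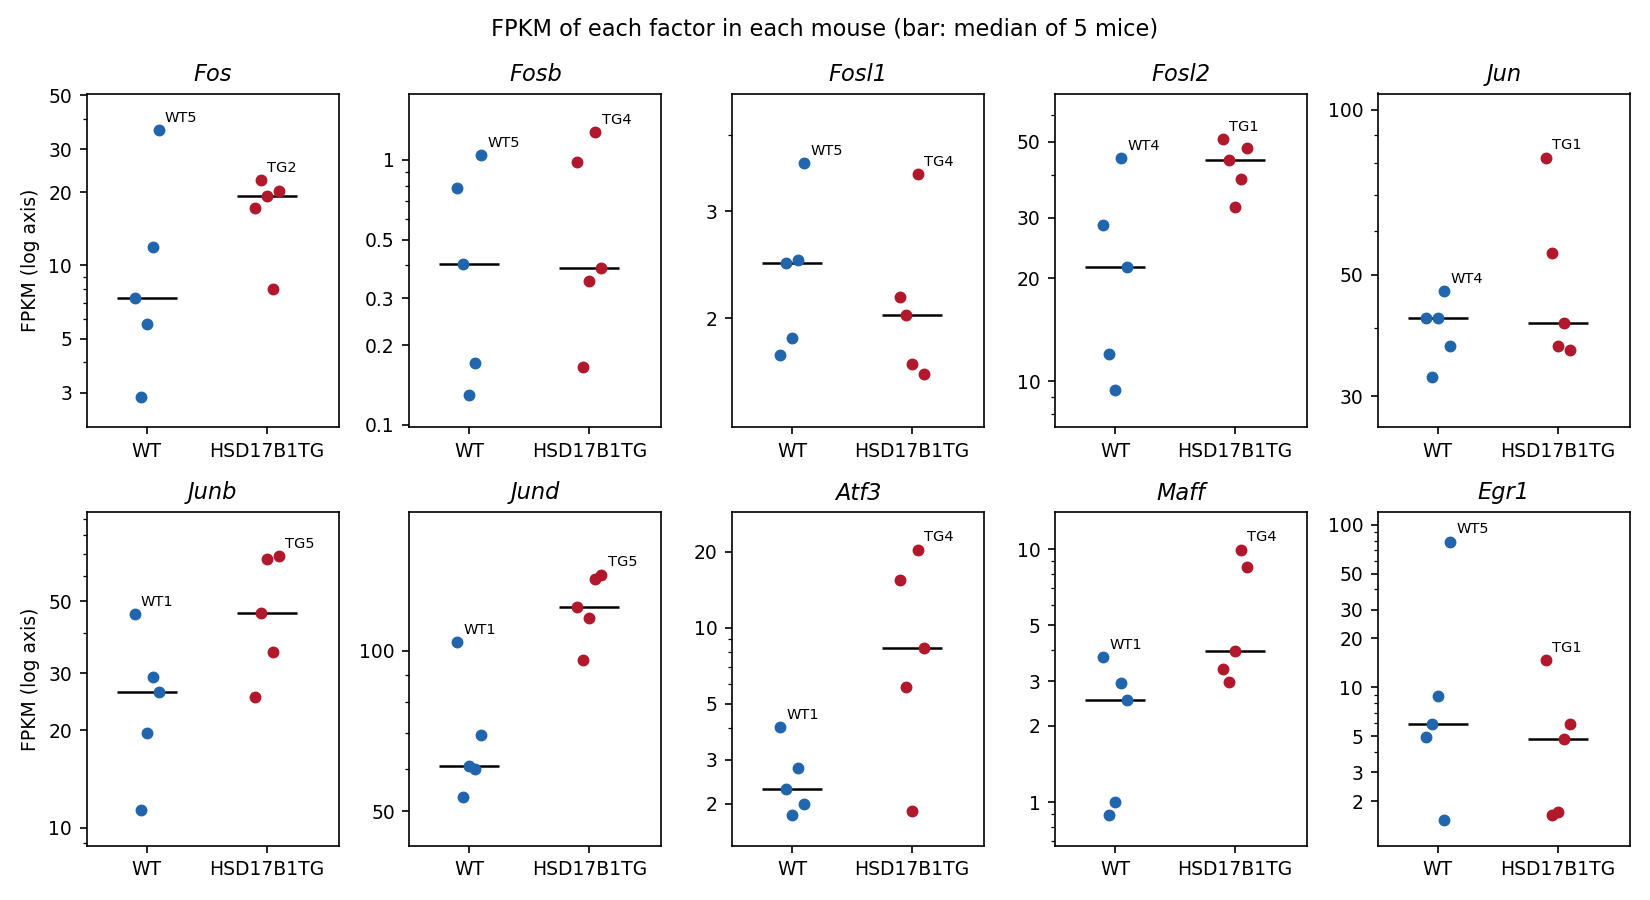
FPKM on a log axis (y) of each factor in each of 5 WT (blue) and 5 HSD17B1TG (red) mice (x), with a bar at the median of 5 mice and the name of the highest mouse of each group. The groups overlap in every panel, *Jund* and *Atf3* have 4 of the HSD17B1TG mice above all WT mice, and WT5 stands at 78.7 FPKM in *Egr1*.

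FPKM are scaled per length, so levels can be ordered between genes. *Jund* was the highest factor in 9 of the 10 mice, the exception being WT5, where *Egr1* (78.7 FPKM) lay above *Jund* (69.3 FPKM). The medians of *Jund* were 121 FPKM in HSD17B1TG and 60.7 FPKM in WT, and in both groups its range did not overlap that of the next factor by median. In WT, *Jun* (41.7), *Junb* (26.2) and *Fosl2* (21.6) followed by median FPKM, and in HSD17B1TG *Junb* (46.1), *Fosl2* (44.3) and *Jun* (40.9). The ranges of these 3 neighbours overlapped in each group. *Fos* came next, with medians of 19.2 FPKM in HSD17B1TG and 7.33 FPKM in WT. *Egr1*, *Maff*, *Fosl1* and *Atf3* had medians between 2.30 and 5.96 FPKM in WT, with overlapping ranges between neighbours. *Fosb* was the lowest factor in every mouse, and its range did not overlap that of the factor above it.

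The Jun proteins are the obligate partners in most AP-1 dimers. *Jund* (ENSMUSG00000071076, chromosome 8 from 70698949 to 70700616) had 121, 96.0, 115, 137 and 139 FPKM in TG1 to TG5 and 104, 53.1, 60.7, 59.9 and 69.3 FPKM in WT1 to WT5. All HSD17B1TG mice were thus above 4 of the WT mice, and WT1 was the WT mouse that reached into their range, above TG2. The means were 122 ± 17.5 FPKM in HSD17B1TG and 69.4 ± 20.1 FPKM in WT (SD, n = 5), with a log2 fold change of 0.81 ± 0.19 (SE, edgeR adjusted p = 0.0390). The exact permutation test, two-sided and on log2(FPKM + 1), gave p = 0.0159, where 0.00794 is the lowest value such groups can reach. The adjusted p was over 0.05 without any of TG2, TG4, TG5, WT2, WT3 or WT5, up to 0.101 without WT2, and the log2 fold change stayed between 0.70 and 0.97 over the 10 fits that left out a mouse. With scaling by library size alone the adjusted p was 0.0631.

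*Junb* (ENSMUSG00000052837, chromosome 8 from 84974484 to 84978718), whose product is a weaker activator than c-Jun and can oppose it, had 25.4, 46.1, 67.7, 34.8 and 69.0 FPKM in TG1 to TG5. The WT mice had 45.7, 11.3, 19.6, 29.2 and 26.2 FPKM. 3 HSD17B1TG mice lay above all WT mice, and TG1 lay below the WT median. The log2 fold change was 0.88 ± 0.37 (SE, edgeR adjusted p = 0.164) and the exact permutation test gave p = 0.0794. *Jun* (ENSMUSG00000052684, chromosome 4 from 95049034 to 95052222) had 81.7, 54.7, 37.0, 40.9 and 36.5 FPKM in TG1 to TG5 and 32.5 to 46.6 FPKM in WT. TG1 and TG2 were above every WT mouse, while the medians of the groups lay side by side at 40.9 and 41.7 FPKM. Its log2 fold change was 0.33 ± 0.23 (SE, edgeR adjusted p = 0.399). It was 0.081 without TG1 and between 0.24 and 0.42 with any other mouse left out. *Jun*, *Junb* and *Jund* each overlap a gene on the other strand (*Junos*, *Prdx2* and *Gm11175* in GENCODE M21), and the strand setting of the counting is not given in the sources used here, so reads of these pairs cannot be told apart.

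As a description with no test, the summed FPKM of the 3 Jun genes lay between 197 and 245 in HSD17B1TG and between 96.9 and 191 in WT. *Jund* made up 48.8% to 64.3% of this sum in HSD17B1TG mice and 44.1% to 54.8% in WT mice. The share of *Jun* was 14.9% in TG5 and 35.9% in TG1, and from 21.8% to 34.4% in WT. The ranges of all 3 shares overlapped between the groups.

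Fos proteins are the partners with which Jun proteins form the more stable AP-1 dimers. *Fosl2* (ENSMUSG00000029135, chromosome 5 from 32135801 to 32157842), a Fos-related factor with slower kinetics than *Fos*, had 50.9, 44.3, 32.2, 39.0 and 48.0 FPKM in TG1 to TG5. WT1 to WT5 had 28.6, 12.0, 9.38, 44.7 and 21.6 FPKM. The HSD17B1TG mice lay close together (SD of log2 CPM 0.27) and the WT mice far apart (0.90), with WT4 inside the HSD17B1TG range. The log2 fold change was 0.88 ± 0.37 (SE, edgeR adjusted p = 0.165) and the exact permutation test gave p = 0.0397. Without WT4 it was 1.26 with an adjusted p of 0.0301 in edgeR, which passes all thresholds, in a fit where 5.12% of genes were called higher. Without each of the other 9 mice *Fosl2* was not called, with edgeR adjusted p between 0.159 and 0.321.

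*Fos* (ENSMUSG00000021250, chromosome 12 from 85473890 to 85477273), the best known immediate early gene, had 17.3, 22.3, 19.2, 7.96 and 20.2 FPKM in TG1 to TG5. WT1 to WT5 had 7.33, 2.89, 5.75, 11.9 and 35.9 FPKM. 4 HSD17B1TG mice lay above 4 of the WT mice, and the highest of all 10 mice was WT5. The means were 17.4 ± 5.59 FPKM in HSD17B1TG and 12.8 ± 13.3 FPKM in WT (SD, n = 5), with a log2 fold change of 0.44 ± 0.58 (SE, edgeR adjusted p = 0.674). Without WT5 it was 1.29 (adjusted p = 0.115 in edgeR). With any other mouse left out it lay between 0.16 (without WT2) and 0.63 (without TG4). The low members of the family did not separate the groups. *Fosl1* (ENSMUSG00000024912, chromosome 19 from 5447703 to 5455945), which encodes Fra-1, ranged from 1.62 to 3.45 FPKM in HSD17B1TG and from 1.74 to 3.60 FPKM in WT. *Fosb* (ENSMUSG00000003545, chromosome 7 from 19302696 to 19310051) ranged from 0.166 to 1.27 FPKM and from 0.129 to 1.04 FPKM, on 13 to 133 counts per mouse. Their log2 fold changes were -0.16 (SE 0.30) and 0.31 (SE 0.67), with adjusted p of 0.786 and 0.810 in edgeR. *Fosl1* overlaps *Ccdc85b* on the other strand.

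Within the Fos family, *Fosl2* made up 60.2% to 75.5% of the summed FPKM in HSD17B1TG mice and 54.8% to 75.4% in WT1 to WT4. WT5 differed, with 34.7% *Fosl2* and 57.8% *Fos*. The sum itself lay between 51.7 and 71.4 FPKM in HSD17B1TG and between 17.1 and 62.1 FPKM in WT. WT2 and WT3 were the low mice, with *Fosl2* at 12.0 and 9.38 FPKM.

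*Atf3* and *Maff* encode bZIP proteins that pair with or compete with AP-1. *Atf3* (ENSMUSG00000026628, chromosome 1 from 191170296 to 191218039), a stress-induced repressor of the ATF family, had 15.5, 5.82, 1.88, 20.4 and 8.29 FPKM in TG1 to TG5. WT mice had 4.02, 2.30, 1.81, 2.79 and 1.99 FPKM. TG3 lay at the level of the WT mice, and the other 4 HSD17B1TG mice lay above every WT mouse. The means were 10.4 ± 7.48 FPKM in HSD17B1TG and 2.58 ± 0.885 FPKM in WT (SD, n = 5), the largest difference on the log2 scale among the factors, with a log2 fold change of 2.003 ± 0.54 (SE, edgeR adjusted p = 0.0522). The exact permutation test gave p = 0.0397. DESeq2 gave an adjusted p of 0.00311. Without TG3 the log2 fold change was 2.25 (adjusted p = 0.0169 in edgeR), which passes all thresholds, in a fit that called 2.12% of genes higher. Without each of the other 9 mice the log2 fold change lay between 1.602 (adjusted p = 0.107, without TG4) and 2.19, and the edgeR adjusted p lay between 0.0538 and 0.124, so that *Atf3* was not called. Limma gave adjusted p = 0.164 on voom weights and 0.0945 on log2(FPKM + 1). *Atf3* overlaps the small RNA gene *Gm24748* on the other strand.

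*Maff* (ENSMUSG00000042622, chromosome 15 from 79346621 to 79359076), a small Maf protein that lacks an activation domain, had 3.35, 2.99, 3.97, 9.95 and 8.50 FPKM in TG1 to TG5. The WT values were 3.75, 0.893, 1.00, 2.97 and 2.54 FPKM. TG4 and TG5 stood well above all other mice, and every HSD17B1TG mouse was above the WT median. The log2 fold change was 1.36 ± 0.49 (SE, edgeR adjusted p = 0.110) and the exact permutation test gave p = 0.0317. DESeq2 gave an adjusted p of 0.0445 for *Maff*, and limma gave adjusted p = 0.127 on voom weights and 0.104 on log2(FPKM + 1). *Maff* was not called by edgeR without any 1 of the 10 mice, with adjusted p between 0.0794 and 0.230.

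*Egr1* (ENSMUSG00000038418, chromosome 18 from 34859823 to 34864984), a zinc finger factor induced by the same kinases as *Fos*, showed the widest spread of the factors, 51.7-fold over the 10 mice. It had 14.7, 1.64, 1.72, 4.83 and 5.95 FPKM in TG1 to TG5 and 4.98, 5.96, 8.82, 1.52 and 78.7 FPKM in WT1 to WT5. WT5, with 7228 counts against 128 to 1229 in the other 9 mice, was far above the rest, and the remaining mice of both groups overlapped. The log2 fold change was -1.80 ± 1.02 (SE, edgeR adjusted p = 0.289) with all mice and 0.086 (adjusted p = 0.955 in edgeR) without WT5. DESeq2 gave *Egr1* no p, as for 179 genes in all, and its largest Cook's distance, a measure of how far 1 mouse moves the fit, was 10.9 in WT5. The direction for *Egr1* therefore rested on WT5.

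**Figure D2:**
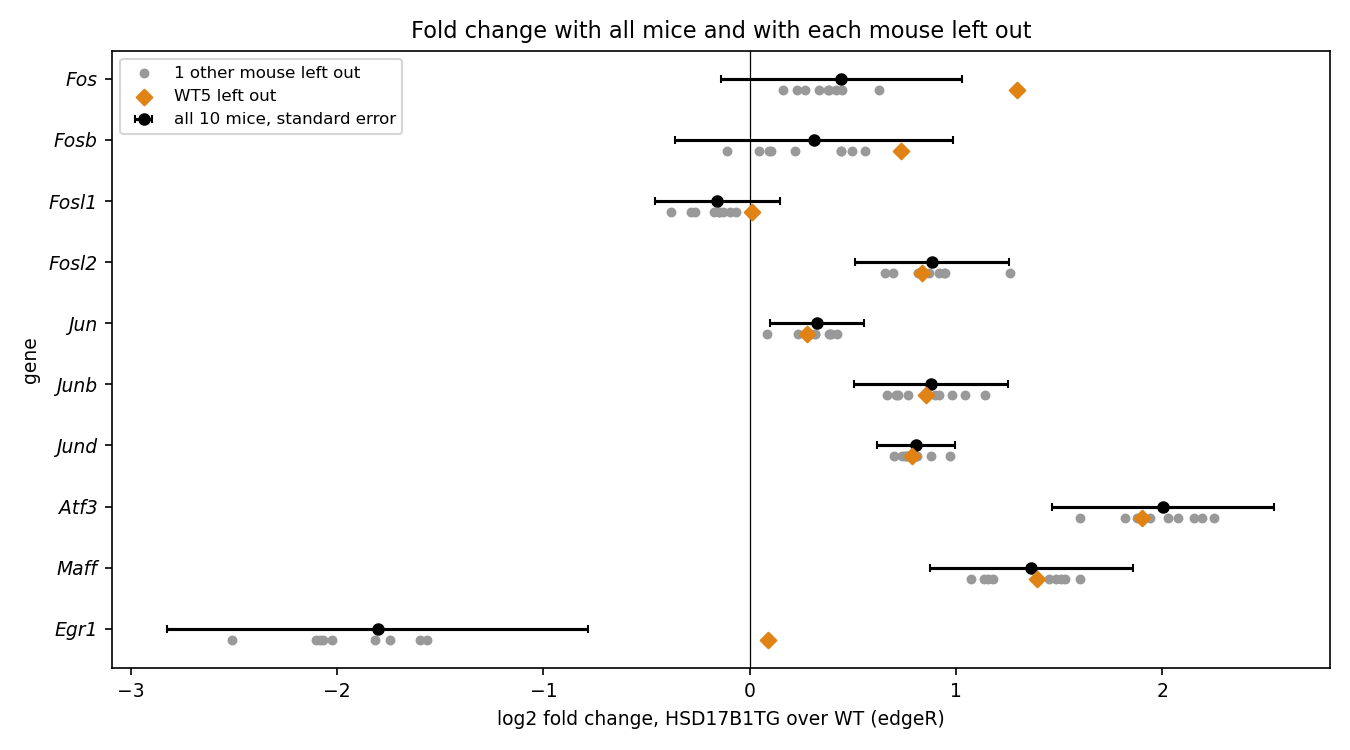
The edgeR log2 fold change of each factor (x, HSD17B1TG over WT) by gene (y), with all 10 mice (black, bar of 1 standard error), with WT5 left out (orange diamond) and with each other mouse left out (grey). *Egr1* moves from -1.80 to 0.086 and *Fos* from 0.44 to 1.29 without WT5, while *Jund*, *Atf3* and *Maff* stay above 0 in every fit.

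WT5 was the highest of the 10 mice in 3 of the 10 factors (*Fos*, *Fosl1* and *Egr1*). It was also the highest in 9 of 31 other immediate early genes tested, or 29.0%, against 10.6% of all genes tested. These were *Egr2*, *Egr3*, *Nr4a1*, *Nr4a3*, *Ier2*, *Klf2*, *Klf10*, *Per1* and *Errfi1*. *Nr4a1*, an orphan nuclear receptor induced together with *Egr1* and named here after its values were seen, had 51.8 FPKM in WT5 and from 2.05 to 9.97 FPKM in the other mice. The 4 red blood cell markers tested were all highest in WT5, with a summed level of 127 CPM against 18.1 to 98.0 CPM in the other mice. The part of blood, handling or cycle phase in the WT5 values was not tested. Without WT5, 0 of the 10 factors were called by edgeR, against 0.626% of all genes, 0 had an adjusted p under 0.05, against 0.302% of all genes with higher expression, and 4 had an unadjusted p under 0.05 with higher expression, against 11.9%. The log2 fold changes of all 10 were above 0 in that fit, against 49.1% of all genes, those of *Fosl1* (0.0089) and *Egr1* (0.086) only just. At the other end, WT2 was the lowest mouse in 5 factors (*Fos*, *Jun*, *Junb*, *Jund* and *Maff*) and WT3 in 3 (*Fosb*, *Fosl2* and *Atf3*). The highest mouse was TG4 for *Fosb*, *Atf3* and *Maff*, TG1 for *Fosl2* and *Jun*, and TG5 for *Junb* and *Jund*, so no HSD17B1TG mouse led throughout. Of all genes tested, 13.4% were highest in TG1, 6.08% in TG4 and 19.7% in TG5.

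**Figure D3:**
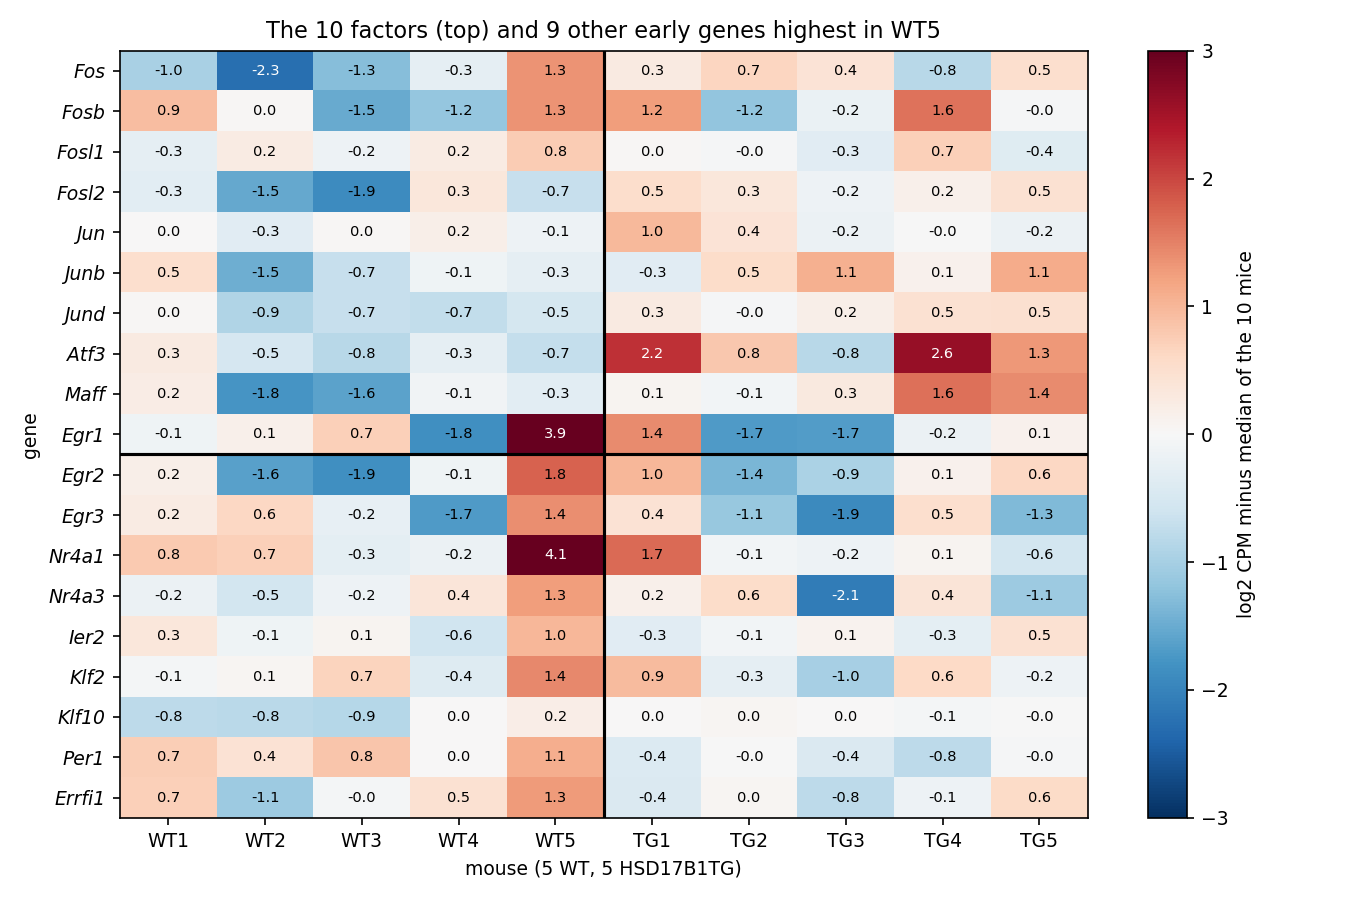
Log2 CPM minus the median of the 10 mice (colour and printed value) for the 10 factors above the line and the 9 other early genes that were highest in WT5 below it (y), in each mouse (x). WT5 reaches 3.9 in *Egr1* and 4.1 in *Nr4a1*, and the 9 genes below the line were chosen for being highest in WT5.

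Covariation from mouse to mouse was examined for each pair of factors. After the mean of each group was removed from log2 CPM, 34 of the 45 pairs of factors had a positive Pearson r over the 10 mice, with a median r of 0.25. Of these pairs, 1 reached an unadjusted p under 0.05 in the two-sided exact permutation test within groups, and 0 of 45 pairs did after adjustment, by Pearson or Spearman, on log2 CPM or on log2(FPKM + 1). This was *Jund* with *Maff* (r = 0.76, permutation p = 0.0153, adjusted p = 0.591, Spearman rho = 0.81, permutation p = 0.0101). Without WT1 and WT2, the mice farthest from the median of *Jund* once group means were removed, r was 0.67. By Spearman, *Fosl1* with *Junb* also had an unadjusted permutation p under 0.05 (rho = -0.68, permutation p = 0.0479, adjusted p = 0.568). On log2(FPKM + 1) the pairs were *Jund* with *Maff* (permutation p = 0.00917, adjusted p = 0.412) and *Fosb* with *Egr1* (r = 0.65, permutation p = 0.0438, adjusted p = 0.533). *Fos* and *Egr1*, the classical pair, had r = 0.39 (permutation p = 0.381, adjusted p = 0.805) and rho = -0.05 (permutation p = 0.904, adjusted p = 0.924). Without WT2 and WT5 this r was -0.38, and without WT5 alone it was -0.46, so the positive value rested on WT5.

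The genes whose log2 CPM over the 10 mice was most like that of a factor, among 14315 protein-coding genes, came from outside the lists of immediate early and feedback genes. They are given by Pearson r as a description, with group differences and library make-up shared by all points. *Fosl2* was most like *Hcar2* (r = 0.99), *Pdlim7* (0.98) and *Tspo2* (0.97). *Junb* was most like *H13* (0.97), *CAAA01118383.1* (0.96) and *Cdk2ap2* (0.96), and *Jund* was most like *Siglech* (0.94), *Orai1* (0.93) and *Unc5b* (0.93). *Atf3* was closest to *Thrb* (0.97), *Doc2b* (0.96) and *Ulk1* (0.95), and *Maff* to *Tcim* (0.96), *Gadd45a* (0.96) and *Metrnl* (0.95). *Fos* followed *Lrat* (0.93), *Ces2b* (0.90) and *Syn3* (0.89), and *Jun* followed *Mast4* (0.95), *Myl4* (0.93) and *Cpeb3* (0.92). For *Egr1* these were *Adck5* (0.95), *Ttc4* (0.92) and *Taf3* (0.92), for *Fosl1* *Kansl1l* (0.94) and *Trhde* (0.91), and for *Fosb* *Ptpn23* (0.90), *Kcnk13* (0.88) and *Sds* (0.87). None of the 30 was another factor of the group.

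Among the other bZIP proteins that can join AP-1, 4 of 18 tested genes were called, 3 higher and 1 lower, against 2.16% and 2.08% of all genes tested, which is also the background of the lists that follow, and the median log2 fold change of the list was 0.11. *Jdp2*, a Jun dimerisation partner that represses AP-1, had 26.2 ± 8.23 FPKM in HSD17B1TG and 9.25 ± 4.84 FPKM in WT (SD, n = 5), with a log2 fold change of 1.50 ± 0.35 (SE, edgeR adjusted p = 0.0388). *Mafk*, a small Maf protein like *Maff*, had 13.3 ± 2.84 and 6.42 ± 1.48 FPKM (SD, n = 5), with a log2 fold change of 1.04 ± 0.20 (SE, edgeR adjusted p = 0.0243). *Batf2* was the other gene called higher (log2 fold change 1.01, adjusted p = 0.0437 in edgeR). *Batf*, the AP-1 partner of lymphocytes, was lower, with 1.90 ± 0.581 FPKM in HSD17B1TG and 5.86 ± 3.11 FPKM in WT (SD, n = 5) and a log2 fold change of -1.62 ± 0.39 (SE, edgeR adjusted p = 0.0400). In *Jdp2*, *Mafk*, *Batf2* and *Batf* the groups did not overlap, against 4.04% of all genes for higher and 2.65% for lower expression. DESeq2 called these 4 genes and *Nfe2l3*, which was higher, against 4.17% and 3.07% of all genes. *Mafk* overlaps *Tmem184a* and *Jdp2* overlaps *Gm47863*, both on the other strand.

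Of 31 other immediate early genes tested, edgeR called 0 higher and 2 lower, and the median log2 fold change was -0.10. An unadjusted p under 0.05 was reached by 5 with higher expression, against 14.7% of all genes, and by 4 with lower expression, against 11.4%. DESeq2 called 1 higher, the zinc finger gene *Klf4*, and 2 lower, against 4.17% and 3.07% of all genes. *Nfil3*, a bZIP repressor, had 5.39 ± 0.916 FPKM in HSD17B1TG and 16.8 ± 7.58 FPKM in WT (SD, n = 5), with a log2 fold change of -1.64 (adjusted p = 0.0305 in edgeR). *Myc*, the growth-promoting early gene, had 13.9 ± 1.76 and 32.9 ± 15.9 FPKM (SD, n = 5), with a log2 fold change of -1.25 (adjusted p = 0.0498 in edgeR). *Per1*, a clock gene with an early response, reached an adjusted p of 0.0342 in edgeR with a log2 fold change of -0.98, under the 2-fold threshold, and its groups did not overlap. In *Nfil3* the lowest WT mouse was WT2 (5.12 FPKM) and in *Myc* it was WT4 (11.7 FPKM), each inside the HSD17B1TG range.

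Of 19 feedback inhibitors of the MAPK response, 1 was called, *Dusp5*, a nuclear phosphatase of ERK, with 5.69 ± 2.25 FPKM in HSD17B1TG and 1.92 ± 0.548 FPKM in WT (SD, n = 5) and no overlap. Its log2 fold change was 1.57 (adjusted p = 0.0263 in edgeR), and an antisense gene lies on its other strand. *Ier3* and *Dusp6* had log2 fold changes of 1.91 and 1.50 without passing (adjusted p = 0.117 and 0.133 in edgeR). DESeq2 called *Dusp5* and *Ier3* higher, and the median log2 fold change of the list was 0.26. Of 26 kinases and upstream factors, 1 was called, the receptor tyrosine kinase gene *Erbb2*, with a log2 fold change of 1.09 (adjusted p = 0.0388 in edgeR) and 26.7 ± 9.21 against 12.5 ± 2.91 FPKM (SD, n = 5). *Egfr* and *Mapk8*, which encodes the Jun kinase JNK1, had log2 fold changes of -0.78 and -0.42 (adjusted p = 0.0832 and 0.0621 in edgeR), and the list had a median of 0.08. In *Mapk8* every HSD17B1TG mouse lay below every WT mouse. *Erbb2* overlaps *Mien1* and *Egfr* overlaps *Egfros* on the other strand, and *Mapk8* overlaps a pseudogene on its own strand.

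Genes with known AP-1 regulation had a median log2 fold change of 0.71 over 20 tested, above those of the factors and the 5 other AP-1-related lists, and 13 of the 20 log2 fold changes were above 0, against 50.2% of all genes. None was called higher by edgeR, where 6 of 20 had an unadjusted p under 0.05 for higher and 1 for lower expression, against 14.7% and 11.4% of all genes. DESeq2 called 1 higher, *Mmp9*, against 4.17%. The single call was *Cd44*, a hyaluronan receptor, which was lower, with 5.06 ± 0.994 FPKM in HSD17B1TG and 10.9 ± 3.98 FPKM in WT (SD, n = 5) and a log2 fold change of -1.11 (adjusted p = 0.0414 in edgeR). The chemokine *Cxcl1* and the protease *Mmp9* had log2 fold changes of 2.21 and 1.72 (adjusted p = 0.119 and 0.122 in edgeR), with 0.0858 to 2.64 FPKM and 0.436 to 4.31 FPKM among HSD17B1TG mice. Of 14 heat shock genes, a group that also responds to tissue stress, 0 were called by edgeR and DESeq2 called 1, *Hspa1a*, with a median log2 fold change of -0.05. An unadjusted p under 0.05 was reached by 2 of the 14 with higher and 2 with lower expression, against 14.7% and 11.4% of all genes tested. *Hspe1*, a mitochondrial chaperone, reached an adjusted p of 0.0343 in edgeR at a log2 fold change of -0.72, without overlap of the groups. *Hspa1a* and *Hspa1b*, near-identical copies between which reads may be split, had log2 fold changes of 1.16 and 1.27 (adjusted p = 0.0764 and 0.109 in edgeR). Over these 6 lists edgeR called 5 genes higher and 4 lower, and the counts depended on single mice, as did those over all genes. The count called higher was 0 without each of TG2, TG4, TG5, WT2, WT3 and WT5, in fits that called 0.318%, 0.48%, 0.219%, 0.221%, 0.394% and 0.267% of all genes higher. It was 1 without WT1, 4 without TG3, 9 without TG1 and 12 without WT4, where 0.579%, 2.12%, 4.42% and 5.12% of all genes were called higher. The count called lower was 0 without each of TG2, TG4, TG5, WT1, WT3 and WT5, in fits that called 0.347%, 0.381%, 0.156%, 0.84%, 0.452% and 0.36% of all genes lower. It was 1 without WT2, 3 without TG1, 3 without TG3 and 6 without WT4, where 0.325%, 3.33%, 3.05% and 3.84% of all genes were called lower. In 4 of the 128 tested genes of these lists the HSD17B1TG mice lay above every WT mouse (*Batf2*, *Jdp2*, *Mafk* and *Dusp5*), and in 4 they lay below every WT mouse (*Batf*, *Per1*, *Mapk8* and *Hspe1*). Both shares were 3.12%, against 4.04% and 2.65% of all genes.

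**Figure D4:**
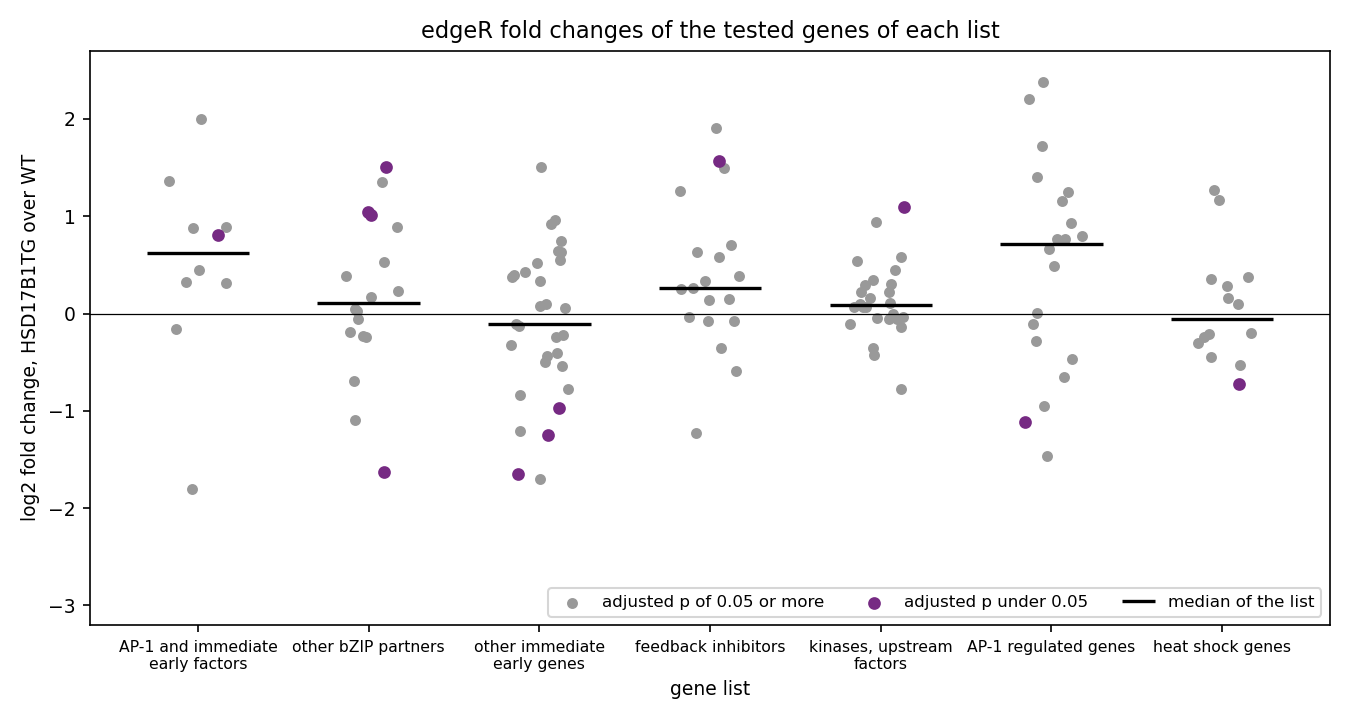
The edgeR log2 fold change (y, HSD17B1TG over WT) of each tested gene of the 10 factors and of 6 related lists (x), with genes at an adjusted p under 0.05 in purple and the median of each list as a bar. The factors have a median of 0.62 and the other immediate early genes of -0.10.

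Summed levels of some cell type markers also differed between the groups. Markers of stroma had summed levels of 3011 to 10970 CPM in HSD17B1TG and of 11372 to 14449 CPM in WT, without overlap. Of these 10, edgeR called 5 lower, against 2.08% of all genes, and DESeq2 called 6 lower, against 3.07%. Markers of epithelium summed to 2211 to 9540 CPM in HSD17B1TG and 1160 to 4797 CPM in WT, where 0 of 12 were called by edgeR, 8 of 12 had an unadjusted p under 0.05 with higher expression, against 14.7% of all genes, and DESeq2 called 4 of 12 higher, against 4.17%. Smooth muscle markers summed to 2756 to 22548 CPM in HSD17B1TG and 1425 to 16378 CPM in WT. None of these 10 markers was called by edgeR or DESeq2 or had an unadjusted p under 0.05 in edgeR, and all 10 log2 fold changes were above 0. Neutrophil markers, of which 9 were listed and 3 tested, summed to 9.86 to 13.8 CPM in HSD17B1TG and 2.27 to 7.45 CPM in WT. None of the 3 was called by edgeR, and DESeq2 called 1 higher, *S100a9*. Adipocyte markers summed to 66.0 to 241 CPM and 25.4 to 61.9 CPM, with 3 of 8 tested. Of these, edgeR called *Lipe* higher, and DESeq2 called *Lipe* and *Fabp4* higher. Leucocyte markers summed to 289 to 401 CPM in HSD17B1TG and 228 to 343 CPM in WT. Of 8 tested, edgeR called *Laptm5* higher and *Ncr1*, a natural killer cell receptor, lower, and DESeq2 also called *Ptprc* lower. Endothelium markers summed to 147 to 577 CPM and 352 to 782 CPM. Of 9 tested, edgeR called 0. Its unadjusted p was under 0.05 in 4 with lower expression, against 11.4% of all genes, and in 1 with higher expression. DESeq2 called 2 lower, *Emcn* and *Esam*, against 3.07% of all genes. Oviduct and ciliated cell markers summed to 123 to 188 CPM and 127 to 257 CPM, with 0 of 4 tested called by edgeR or DESeq2. No listed marker was at 0 in all mice, *Hoxa10* and *Hoxa11* of the uterine stroma included. WT4, the WT mouse with the highest *Fosl2* (44.7 FPKM), also had the highest epithelium sum of the WT mice (4797 CPM), and WT1, highest of the WT mice in *Jund*, *Junb*, *Atf3* and *Maff*, had the second highest (2727 CPM) and the lowest stroma sum (11372 CPM). TG1, with the lowest epithelium sum of the HSD17B1TG mice (2211 CPM), had the highest *Fosl2* of all mice. TG1 (22548 CPM) and WT4 (16378 CPM) also had the highest smooth muscle sums of their groups, and they were the highest mice of their groups in *Fosl2* (50.9 and 44.7 FPKM) and in *Jun* (81.7 and 46.6 FPKM). The part of tissue make-up in the levels of the factors was not tested.

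**Figure D5:**
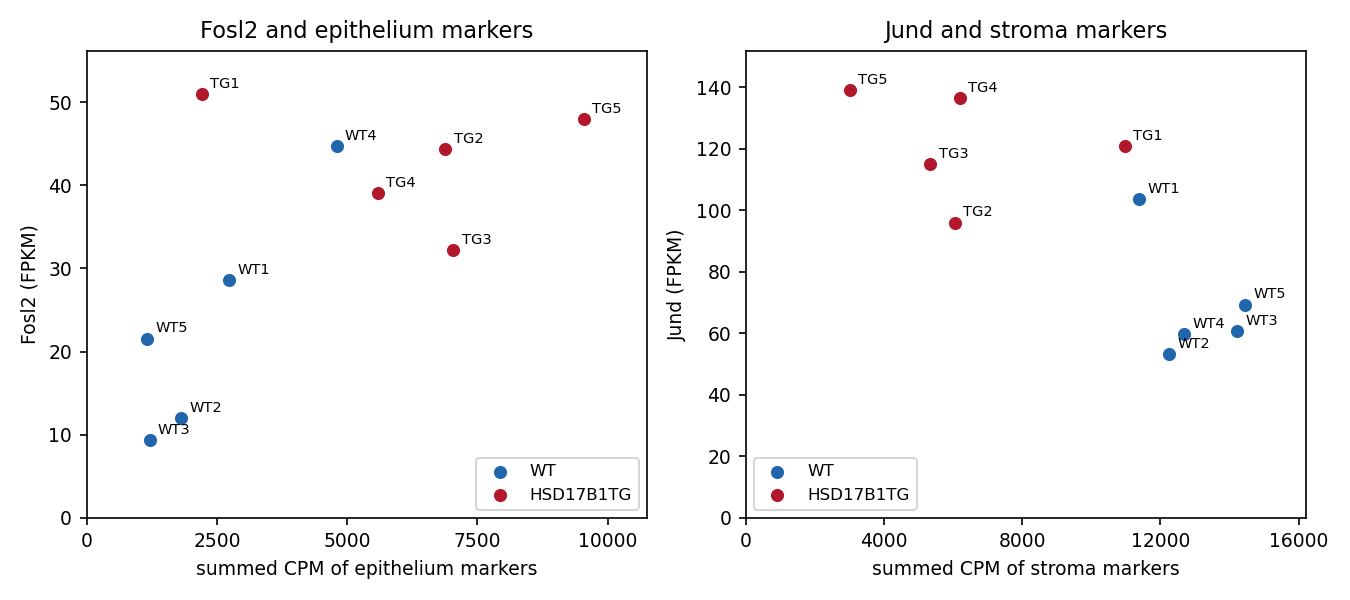
Left, *Fosl2* FPKM (y) against the summed CPM of 12 epithelium markers (x). Right, *Jund* FPKM (y) against the summed CPM of 10 stroma markers (x). Each point is a mouse (WT blue, HSD17B1TG red), WT4 lies beside the HSD17B1TG mice on the left, and on the right the WT mice lie between 11372 and 14449 CPM.

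Each HSD17B1TG library held 16544864 to 19451715 counts on genes and each WT library 14817228 to 23271988. The share of counts on the top 10 genes was 6.97% to 12.5% in HSD17B1TG and 5.18% to 6.15% in WT, and that on mitochondrial genes was 1.94% to 7.57% and 2.58% to 3.37%. The lowest count of a factor in any mouse was 13, for *Fosb* in WT3, above the 3 counts taken as the floor.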

How the data were processed

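Total RNA from the uterus (HSD17B1TG, n = 5, and WT, n = 5, at 4 months) was extracted with Trizol, purified on columns and sequenced as paired-end reads. The authors mapped the reads to the mouse genome (Ensembl 94) with HISAT2 2.0.5 and deposited raw gene counts per mouse. The signal deposited by the authors equals these counts scaled with 1 DESeq2 size factor per mouse. The deposited FPKM (fragments per kilobase of transcript and per sequencing depth) carry the same scaling. How reads were counted, and with what strand setting, is not given in the sources used here. Columns with the authors' own fold changes and p-values, and their enrichment tables, were not used.

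Groups follow the genotype label, with mice numbered within a group in accession order. The main test was edgeR 4.0.16 in R 4.3.3 on counts (filterByExpr, TMM, quasi-likelihood), and p-values were adjusted by Benjamini-Hochberg over all 16993 genes. Single values were tested by a two-sided exact permutation test over 252 assignments on log2(FPKM + 1). CPM had a prior count of 2 on the log2 scale. Total counts set the precision of each value, and a floor of 3 counts is 0.202 CPM in the mouse with the lowest total, for counting error only. The alternatives were DESeq2 1.42.0, limma 3.58.1 on voom weights or on log2(FPKM + 1), other normalizations and filters, and each mouse left out in turn. The edgeR fit was tested on simulated counts. Gene overlaps come from GENCODE M21.

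The 10 factors and the other lists were chosen with earlier results of these data known. Apart from the factors, the genes named are the 3 with the smallest edgeR p of each list and the 3 most like each factor in log2 CPM. Of the latter, 1 is not reported here. *Batf2*, *Klf4*, *Nfe2l3*, the genes highest in WT5, *Nr4a1* and the markers called were named in addition, after their values were seen. No batch was modelled, as the labels give no litter, date or batch.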

Additional observations from a re-analysis of the deposited data

Results flagged for a closer look

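WT5 stood apart from the other WT mice in *Fos* and *Egr1*. Its *Fos* level was 35.9 FPKM against 2.89 to 11.9 FPKM in WT1 to WT4, and its *Egr1* level was 78.7 FPKM against 1.52 to 8.82 FPKM. In both genes the gap to the next mouse, as a share of the range of the 5 WT mice, was above Dixon's 95% critical value of 0.710 (0.726 for *Fos* and 0.905 for *Egr1*). On the log2(FPKM + 1) scale the shares were 0.466 and 0.606, under that value. The test was made for the 10 factors in both groups, 20 times in all, and passed 2 times, where chance passes about 1 in 20.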

How the results depend on the processing

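No factor changed direction under another normalization, filter or test with all 10 mice. Scaling by library size alone moved the median log2 fold change of all genes by -0.18 against TMM. The count of factors with an adjusted p under 0.05, 1 as reported, was 0 with library size alone, 0 with no filter on low counts, 3 with DESeq2 and 0 to 2 with a mouse left out. For an unadjusted p under 0.05, 5 as reported, it was 3 with library size alone and 3 to 5 with a mouse left out. The count called higher, 0 as reported, was 2 with DESeq2 and 0 to 1 with a mouse left out. *Jund* kept an adjusted p under 0.05 in 6 of 8 alternatives and in 4 of 10 fits without a mouse. With a mouse left out, the log2 fold change of *Fosb* ranged from -0.11 (without TG4) to 0.73, that of *Fosl1* from -0.38 to 0.0089 (without WT5) and that of *Egr1* from -2.51 to 0.086 (without WT5), and no other factor changed sign. Of all genes, 367 were called higher and 354 lower, against 906 and 666 with DESeq2. The genes called lower were 189 with limma voom and 228 with limma on log2(FPKM + 1). Without a mouse, 38 to 888 genes were called higher and 27 to 666 lower. Of the related lists, 5 genes were called higher, against 2 with library size alone, 3 with no filter, 10 with DESeq2, 2 with limma on log2(FPKM + 1) and 0 to 12 without a mouse. Of these lists 4 genes were called lower, against 0 with limma voom, 2 with limma on log2(FPKM + 1) and 0 to 6 without a mouse. The cause of these moves was not tested. A robust edgeR fit, chosen after seeing the data, left the factors at 0 called and 1 with an adjusted p under 0.05. Depth limits *Fosb* most, with 13 to 133 counts per mouse. No paired analysis was possible because the labels give the groups no shared replicate numbers.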

Other observations

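The ratio of summed Jun family FPKM to summed Fos family FPKM lay between 2.86 and 4.12 in the HSD17B1TG mice and between 2.14 and 7.13 in the WT mice. WT5 (2.14) and WT4 (2.29) had the lowest ratios of the 10 mice, and WT3 (7.13) and WT2 (5.45) the highest. Over the other lists, WT5 was the highest of the 10 mice in 5 of 18 other bZIP genes (*Atf5*, *Atf7*, *Maf*, *Mafg* and *Bach2*) and in 3 of 19 feedback inhibitors (*Dusp1*, *Zfp36l1* and *Nab2*). It was the highest in 1 of 26 kinases and upstream factors, 1 of 20 genes with known AP-1 regulation and 1 of 14 heat shock genes, against 10.6% of all genes tested.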
